A study of Mus musculus with 2 samples.

Results

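The natural killer (NK) gene complex of mouse chromosome 6 was examined for open chromatin in formalin-fixed, paraffin-embedded (FFPE) mouse spleen. Its members were taken as every gene of the GENCODE vM21 annotation (mm10), of any type, that lies on chromosome 6 and has a symbol starting with Klr. This gave 30 of 55450 annotated genes, of which 26 are protein-coding and 4 are pseudogenes. The Klra family has 14 of them, Klrb 6, Klrc 3, Klri 2 and Klrg 2, and Klrd1, Klre1 and Klrk1 are each alone. In this stretch 28 of the genes follow each other with gaps under 1 Mb, at chr6:128609227-131247362, which is called the complex here. Klrg1 and Klrg2 lie farther away on the same chromosome, so that the whole span from the first to the last Klr gene covers 92.6 Mb with 792 protein-coding genes of every kind.

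The Klr genes encode C-type lectin-like membrane receptors of NK cells and of subsets of T cells. They read whether a neighbouring cell carries major histocompatibility complex (MHC) class I molecules, stress-induced ligands or Clec2 proteins, and pass on inhibition through tyrosine-based motifs or activation through adaptors such as DAP12 and DAP10. The Klra genes encode the Ly49 receptors, which take in mouse the role that immunoglobulin-like KIR receptors have in human, and each NK cell expresses only some of them. Chromatin that a transposase can enter at a promoter or an enhancer is measured here, not transcript or protein.

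Both libraries were made with scFFPE-ATAC, in which nuclei from FFPE tissue are tagmented with a barcoded Tn5 transposase adapted to damaged DNA, barcoded further by split-and-pool ligation and amplified by in vitro transcription. The 50 µL library was tagmented in a reaction of 50 µL in place of the standard 100 µL, and the no-gradient library was made from nuclei that had not been purified from debris by density gradient centrifugation. Both came from spleen of C57BL/6J mice, which the study used at 8 weeks of age, with 1 library each and no treatment or genetic change. The general protocol of the study describes gradient-purified nuclei and a reaction of 100 µL. It is worded alike for both libraries, so that it does not state for each whether the 50 µL nuclei had passed a gradient or which volume the no-gradient library had, and which animals gave which library is not given in the sources used here. These differences cannot be told apart. Peaks had been called on all reads of a library together, so each value is of a mixed spleen nuclei population and belongs to no cell type. With 1 library per condition there is no replicate and no test between them. Intervals given below are exact 95% intervals that cover counting error only.

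The 50 µL list holds 89382 peaks and the no-gradient list 25343. The number of reads over each summit could be recovered from the deposited fold enrichment and −log10 p, and the genome-wide background was 10.8 reads in the 50 µL library and 2.76 in the no-gradient library, a ratio of 3.89. Reads over the summit are therefore also given as a multiple of each library's own genome background. Where the local background equalled that of the genome, the weakest peak called had 25 reads or 2.33 times background in the 50 µL library and 11 reads or 3.98 times background in the no-gradient library, so a site between these values could only be called in the 50 µL library. Promoter peaks in the 50 µL list stood at 5 of 5 B cell, 4 of 5 T cell, 4 of 5 myeloid and 3 of 4 erythroid markers. In the no-gradient list they stood at 2 of 5, 2 of 5, 1 of 5 and 1 of 4 of these. All protein-coding genes had shares of 56.6% and 43.6%, and none of the no-gradient marker shares was above 43.6%. Of 9 NK cell markers, 4 had a promoter peak in the 50 µL list (Tbx21, Prf1, Il2rb and Klrd1) and 1 in the no-gradient list (Klrd1), and the defining markers Ncr1, Eomes and Gzma had none in either list. Of 5 markers of other tissues, the muscle gene Ckm had a promoter peak in both.

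The sequences below are the longest exon-free stretch of the 200 bases around the 50 µL summit, read from the GRCm38 assembly of RefSeq (same coordinates as mm10) in the direction of the gene. They are the promoter sites of Klrd1 and Klrb1a, each with over 100 reads, and the intronic site of Klre1, which differed most between the libraries of the 4 shared sites. The similarly strong Klrb1c site is left out because its summit lies in a coding exon. Capitals mark a match to the AP-1 motif TGANTCA or the STAT motif TTCNNNGAA, and a stretch with no capitals has a match to none of the 6 motifs searched. The AP-1 pattern allows any base at its centre, where the usual AP-1 site has C or G.
Klrd1 promoter, chr6:129591671-129591781, plus strand: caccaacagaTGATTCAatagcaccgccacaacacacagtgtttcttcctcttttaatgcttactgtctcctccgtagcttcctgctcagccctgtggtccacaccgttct
Klrb1a promoter, chr6:128622936-128623135, minus strand: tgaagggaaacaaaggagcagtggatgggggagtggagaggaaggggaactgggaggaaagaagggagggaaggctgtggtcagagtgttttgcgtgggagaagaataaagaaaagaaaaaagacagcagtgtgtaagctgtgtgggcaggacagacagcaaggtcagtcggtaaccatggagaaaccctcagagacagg
Klre1 intron, chr6:129581529-129581728, plus strand: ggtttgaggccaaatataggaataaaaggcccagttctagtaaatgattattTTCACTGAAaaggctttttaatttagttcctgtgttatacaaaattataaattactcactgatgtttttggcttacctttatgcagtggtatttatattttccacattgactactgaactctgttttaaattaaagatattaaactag

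A peak within 1 kb of an annotated transcription start site (TSS) was found at 6 of 30 Klr genes in the 50 µL list (20.0%, interval 7.71% to 38.6%) and at 1 of 30 in the no-gradient list (3.33%, 0.0844% to 17.2%). Among all annotated genes the shares were 31.2% and 21.7%, and among protein-coding genes 56.6% and 43.6%. The 6 genes were Klrb1a, Klrb1f, Klrd1, Klrc1, Klra5 and Klra1, and the gene of the no-gradient list was Klrd1. Promoters of the complex are poor in CpG, with 5 to 20 CpG dinucleotides in 2 kb around the start and a median of 10.0, against a median of 61.0 over all protein-coding genes. Of 4612 protein-coding genes of that CpG range, 14.6% had a promoter peak in the 50 µL list and 7.55% in the no-gradient list. Both shares lie inside the intervals of the Klr genes. A peak anywhere in the gene body was found at 13 of 30 genes in the 50 µL list (43.3%, 25.5% to 62.6%). In the no-gradient list it was found at 4 of 30 (13.3%, 3.76% to 30.7%). Beside these stood 34.1% and 23.6% of all genes, inside both intervals, and 63.9% and 47.7% of protein-coding genes, above both. Of the protein-coding genes of that CpG range it was 22.0%, below the first interval, and 12.6%, inside the second. Those genes were not matched to the Klr genes for length, and longer gene bodies can collect more peaks. Taking promoter and body together, 14 Klr genes had a peak in the 50 µL list and 4 in the no-gradient list, and 16 had none in either. The share of all genes on this joint count was not computed. Each of the 4 genes of the no-gradient list had a peak in the 50 µL list at the same place.

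**Figure D1:**
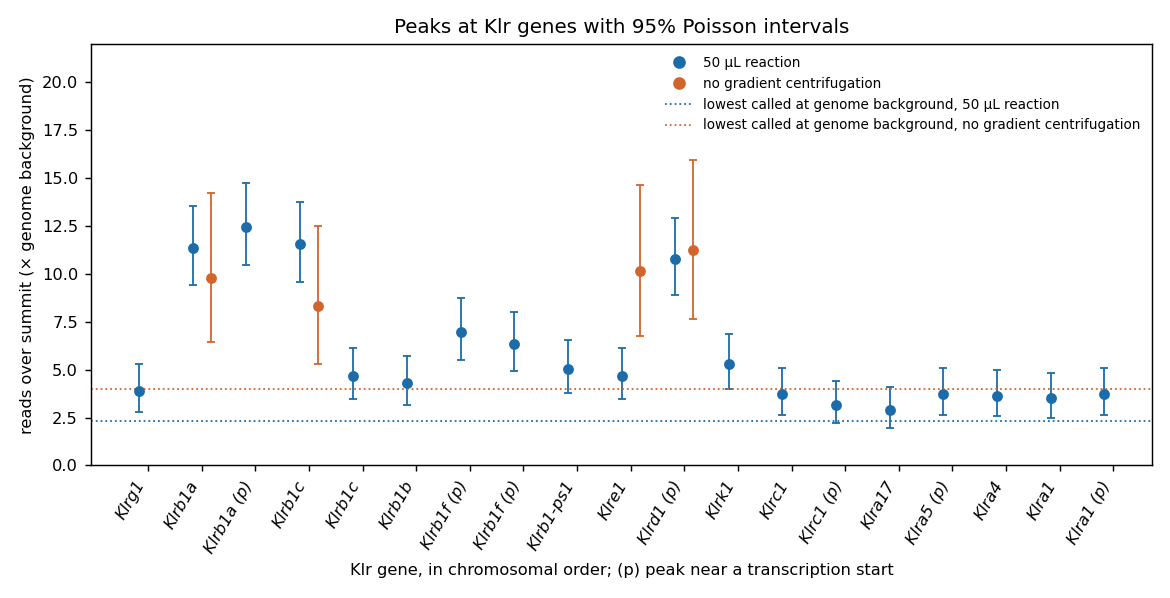
Reads over the summit of each peak at a Klr gene, as a multiple of the genome background of its library, with 95% Poisson intervals, for the 50 µL library (blue) and the library without density gradient centrifugation (orange), with dotted lines at the weakest value each called where the local background was that of the genome. Klrb1a, Klrb1c and Klrd1 reach 10.8 to 12.5 times background in the 50 µL library, while all sites of the Klra and Klrc genes lie below 3.98, the weakest site called at genome background in the other library.

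Klrd1 was the only Klr gene with a promoter peak in both lists. It encodes CD94, the shared partner chain of the NKG2 receptors. Its peak had 116 reads over the summit in the 50 µL library and 31 in the no-gradient library, which is 10.8 (8.92 to 12.9) and 11.2 (7.63 to 15.9) times background, and the intervals overlap almost entirely. The deposited fold enrichments, which are relative to a local background, were 4.73 and 5.95. The summits lay 11 and 8 bases upstream of the TSS, 3 bases apart, in the sequence shown first above. Of all peaks of the same list, 83.7% had fewer reads than the Klrd1 peak in the 50 µL library and 58.7% in the no-gradient library.

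NKG2 chains pair with CD94. Klrc1, which encodes the inhibitory chain NKG2A, had a weak promoter peak in the 50 µL list, with 34 reads or 3.16 times background (2.19 to 4.42) and a summit 115 bases upstream of the TSS. It had a second peak in an intron with 40 reads. Of the 50-base stretches in that intronic peak 49.0% occur once in the genome, and its summit window holds a 46-base run of a 2-base repeat. The no-gradient list had no peak at Klrc1, although one with 19 reads (6.88 times background, 4.14 to 10.7) stood 1532 bases upstream of it, where the 50 µL list had none. Klrc2 and Klrc3, which encode the activating chains NKG2C and NKG2E, had no peak in either list. Only 23.8% and 20.4% of the 50-base stretches within 1 kb of their starts are unique, against a median of 100.0% over 1112 protein-coding genes of chromosome 6. The part of the repeated sequence in the missing peaks was not tested. Klrk1, which encodes the activating receptor NKG2D, had no promoter peak in either list. Its single peak, in the 50 µL list, had 57 reads (5.30 times background, 4.02 to 6.87) and lay at the 3′ end of the gene.

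Klre1 encodes a receptor that forms heterodimers with the Klri1 and Klri2 chains. It showed an intronic peak in both lists, at 50 reads in the 50 µL library and 28 reads in the no-gradient library. Against their own backgrounds these are 4.65 (3.45 to 6.13) and 10.1 (6.74 to 14.7) times, a ratio of 0.459, and the intervals do not overlap. The other 3 shared sites at Klr genes had ratios of 0.961 (Klrd1), 1.16 (Klrb1a) and 1.38 (Klrb1c) with overlapping intervals. Among all 24140 peaks of the no-gradient list that overlap a 50 µL peak, 6.15% had an interval wholly above that of the 50 µL library. The summits at Klre1 were 28 bases apart, and the STAT motif letters shown in capitals lay in both windows. Klri1 and Klri2 had no peak in either list, with 99.8% and 99.7% of the 50-base stretches around their starts unique.

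The Klrb genes encode the NKR-P1 receptors, among them Klrb1c, whose product NK1.1 is used to recognise NK cells of C57BL/6 mice, and Klrb1b and Klrb1f, which bind Clec2 proteins encoded in the same complex. In the 50 µL list 5 of 6 members had a peak in the gene body, and in the no-gradient list 2 of 6. Klrb1a held the site with the most reads of all Klr genes, a promoter peak in the 50 µL list with 134 reads (12.5 times background, 10.4 to 14.8), although its interval overlaps those of other Klrb sites and its fold enrichment of 5.39 was below that of Klrb1c. Its summit lay 102 bases upstream of an internal TSS. Nothing was called there in the no-gradient list. An intronic site of Klrb1a was called in both, with 122 reads in the 50 µL library and 27 in the no-gradient library, or 11.3 (9.42 to 13.5) and 9.78 (6.44 to 14.2) times background. The summits were 2 bases apart.

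Klrb1c had no promoter peak. Within the gene, a peak with 124 reads in the 50 µL library and 23 reads in the no-gradient library was seen, at 11.5 (9.59 to 13.8) and 8.33 (5.28 to 12.5) times background. With 8.16, its fold enrichment in the 50 µL library was above that of 99.6% of the peaks of that list, and its summit fell in a coding exon. A second site of 50 reads followed it in the 50 µL list only. Klrb1c and Klrb1b lie inside the readthrough gene Gm44511, so a site there cannot be given to 1 gene with certainty. Klrb1f had 2 sites in the 50 µL list, with 75 and 68 reads, or 6.98 and 6.32 times background. Klrb1b had 1 with 46 reads and the pseudogene Klrb1-ps1 1 with 54 reads, both in introns. None of these 4 had a counterpart in the no-gradient list. Klrb1 was the only Klrb gene without a peak in either list.

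Klrg1, a receptor for cadherins found on mature NK cells and effector T cells, had 1 intronic peak with 42 reads (3.91 times background, 2.82 to 5.28) in the 50 µL list and none in the no-gradient list. Klrg2 had no peak in either, although its start is rich in CpG, with 134 CpG dinucleotides in 2 kb. Over all members, the 50 µL list held 19 peaks at Klr genes and the no-gradient list 4, of which 4 were shared. Of the 19, 8 were below 3.98 times background, the weakest value called at genome background in the no-gradient library, and none of these was shared. The other 7 unshared peaks were above that value, up to 12.5 times at the Klrb1a promoter. Their local backgrounds were 1.29 to 2.43 times that of the genome, where the limit is higher by an amount not computed here. Whether the limit accounts for their absence from the no-gradient list was not tested.

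In the 50 µL list 4 of 14 genes of the Ly49 receptors (Klra) had a peak at the promoter or in the body, each with 31 to 40 reads, and in the no-gradient list none had one. The sites of Klrc1 and Klrg1, at 34 to 42 reads, were about as weak. Counted singly in the 50 µL list, 2 of 14 Klra genes had a promoter peak (14.3%, 1.78% to 42.8%) and 3 of 14 a body peak (21.4%, 4.66% to 50.8%). Beside these stood 31.2% and 34.1% of all genes, inside both intervals. The no-gradient count of 0 of 14 leaves up to 23.2% possible, beside 21.7% and 23.6% of all genes. Klra1, which encodes the inhibitory receptor Ly49A, had a promoter site with 40 reads (3.72 times background, 2.66 to 5.07) and an intronic site with 38. Klra5, the gene of Ly49E, had a promoter site with 40 reads. Klra4, the gene of the activating receptor Ly49D, had an intronic site with 39 reads, and Klra17, whose product Ly49Q is known from myeloid and plasmacytoid dendritic cells, had one with 31. The Klra17 summit window holds a 39-base run of a 3-base repeat. At most 12.9% of all 50 µL peaks had fewer reads than any of these. The intervals of the strongest Klrb1a, Klrb1c and Klrd1 sites lie wholly above theirs. The promoters of the Klra family are partly repeated in the genome, with 65.8% to 98.9% unique 50-base stretches and a median of 87.7%, against a median of 97.5% for the other Klr genes. How much of the low signal comes with the repeated sequence was not tested. In bulk nuclei, fewer nuclei with an open site and a less open site in each nucleus cannot be told apart.

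The 2 Klra promoter peaks lay over the same kind of sequence. The 200 bases around the Klra1 summit were aligned to 10 kb on each side of the 5′ end of every Klra gene, a comparison chosen after the peaks had been seen. A copy with at least 150 aligned bases was found upstream of 9 other Klra genes, with 81.2% to 91.9% identity. At Klra5 the copy overlaps the promoter peak and holds its summit, with 88.9% identity over 162 bases, and the place of the Klra1 summit falls 50 bases from the Klra5 summit. At Klra7, which encodes the inhibitory receptor Ly49G2, the copy has 91.9% identity over 198 bases and lies 4685 bases upstream of the annotated 5′ end, outside the promoter window. It overlaps a peak in both lists, with 47 reads (4.37 times background, 3.21 to 5.81) in the 50 µL library and 22 reads (7.97 times, 4.99 to 12.1) in the no-gradient library. The summit of the no-gradient peak was 8 bases from the carried-over Klra1 summit, and that of the 50 µL peak 304 bases. This was the only peak between Klra17 and Klra1 found in both lists. The copies at Klra6, Klra4, Klra14-ps, Klra9, Klra10, Klra13-ps and Klra3, 4743 to 9259 bases upstream of the annotated 5′ ends, had no peak in either list. Between 85.1% and 100.0% of the 50-base stretches within the 10 copies are unique. Ly49 genes are known to have a distal promoter several kilobases before the first coding exon as well as a proximal one, and whether these copies correspond to it was not tested. AP-1 letters were found in 8 of the 10 copies, each as TGAATCA, beside 5.39% of all 50 µL summit windows. Their centre is not the C or G of the usual AP-1 site, and copies of each other are not independent. The 3 copies under peaks and that of Klra6, which has 89.4% identity and no peak, are shown in the direction of the genes, from GRCm38, with AP-1 letters in capitals.
Klra1, chr6:130387081-130387280, minus strand: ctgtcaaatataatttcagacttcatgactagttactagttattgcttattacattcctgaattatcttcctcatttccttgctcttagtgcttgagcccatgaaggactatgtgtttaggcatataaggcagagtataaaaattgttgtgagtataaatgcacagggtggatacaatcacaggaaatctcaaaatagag
Klra5, chr6:129917758-129917922, minus strand: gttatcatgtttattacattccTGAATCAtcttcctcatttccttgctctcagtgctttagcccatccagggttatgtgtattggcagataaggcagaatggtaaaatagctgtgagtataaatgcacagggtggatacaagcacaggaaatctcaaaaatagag
Klra7, chr6:130237909-130238106, minus strand: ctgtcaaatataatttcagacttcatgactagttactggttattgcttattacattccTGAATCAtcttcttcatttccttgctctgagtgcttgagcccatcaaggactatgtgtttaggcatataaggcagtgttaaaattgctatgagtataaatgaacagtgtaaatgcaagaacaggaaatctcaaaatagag
Klra6, chr6:130031821-130031983, minus strand: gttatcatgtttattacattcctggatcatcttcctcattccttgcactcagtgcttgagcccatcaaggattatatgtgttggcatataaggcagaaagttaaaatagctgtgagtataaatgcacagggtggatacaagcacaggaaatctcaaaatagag

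**Figure D2:**
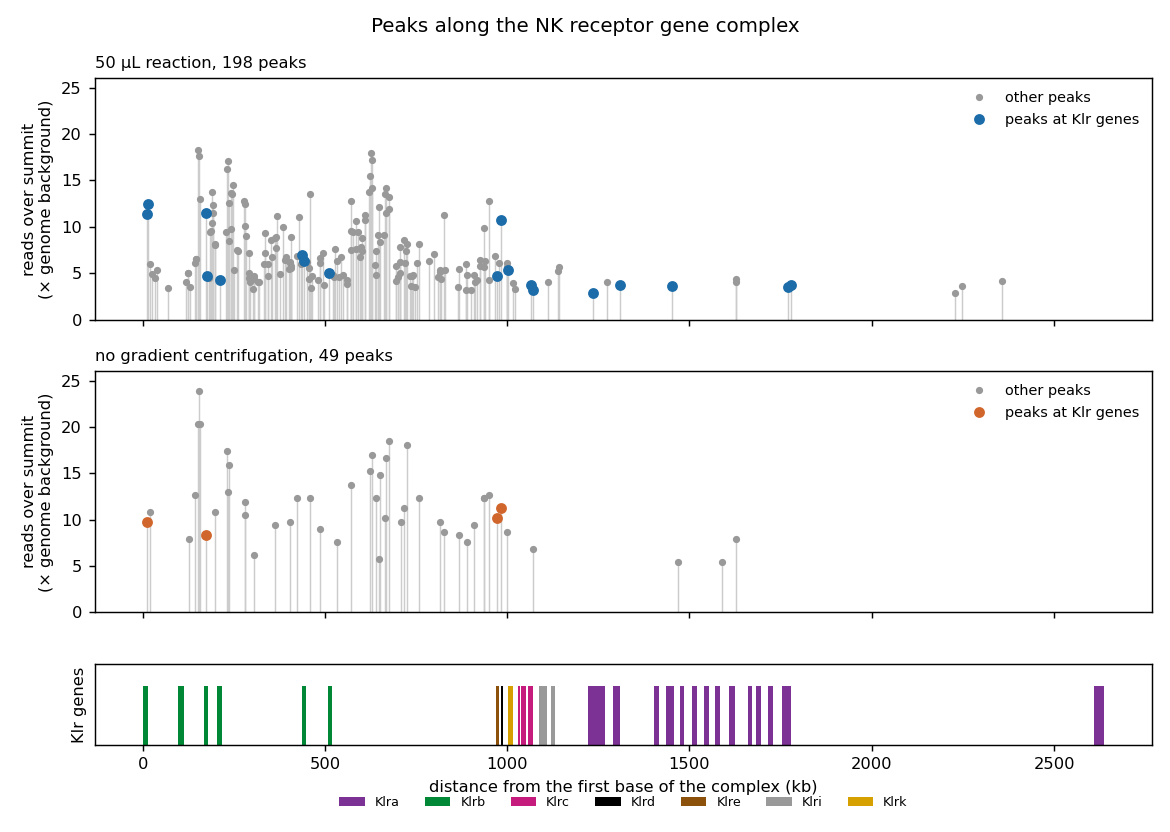
Summit of every peak of the complex by distance from its first base (kb), with height as reads over the summit in multiples of the genome background, for the 50 µL library (top) and the library without density gradient centrifugation (middle), and the Klr genes below. Coloured points are peaks at Klr genes. Peaks crowd the stretch from Klrb1a to Klrk1, and the Klra genes on the right hold few and low ones.

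Over the whole complex the 50 µL list held 198 peaks, 75.1 per Mb (65.0 to 86.3), and the no-gradient list 49, 18.6 per Mb (13.7 to 24.6). The genome averages were 33.7 and 9.57 per Mb, so the complex was denser than the genome in both. The whole span from Klrg2 to Klra2 held 3285 and 948 peaks, 35.5 and 10.2 per Mb. The density was uneven along the complex. The Klrb block of 0.520 Mb had 92 peaks in the 50 µL list and 20 in the no-gradient list, and the neighbouring stretch of Clec genes and Cd69, with no Klr gene, had 81 and 22 in 0.448 Mb. From Klre1 to Klri2, where 8 Klr genes share 0.163 Mb, there were 12 and 4. From Klra17 to Klra1, with 13 Klr genes in 0.556 Mb, there were 8 and 3, or 14.4 per Mb (6.22 to 28.4) and 5.40 per Mb (1.11 to 15.8), the first below the genome average by its interval. The stretch of 0.832 Mb between Klra1 and Klra2 had 4 and 0, and Klra2 had none. A peak that reaches over the end of Klra1 is counted on both sides of it. The unique share of 50-base stretches was 82.5% in the Klrb block, 91.5% in the Clec stretch, 81.9% from Klre1 to Klri2, 78.7% from Klra17 to Klra1 and 66.6% after Klra1. The short stretch between Klri2 and Klra17, of 0.0907 Mb, had 2 and 0 peaks at 83.7% unique. The part of the repeated sequence in the peak counts was not tested.

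**Figure D3:**
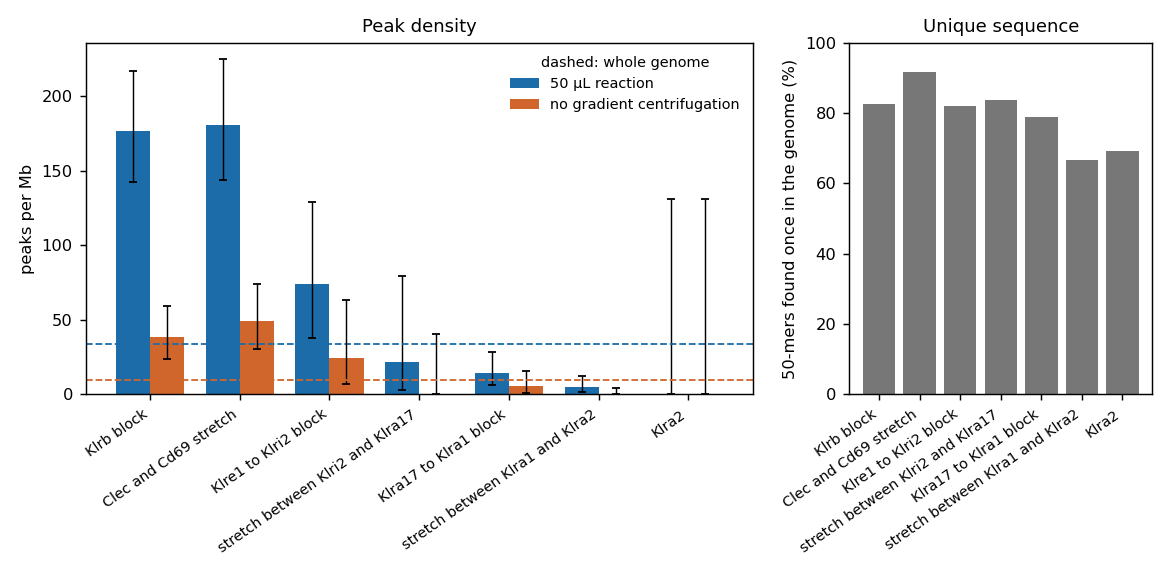
Left, peaks per Mb in consecutive parts of the complex for the 50 µL library (blue) and the library without density gradient centrifugation (orange), with exact 95% Poisson intervals and the genome average of each library as a dashed line. Right, share of 50-base stretches that occur once in the genome (%). Both libraries fall from the Klrb block and the Clec stretch to the Klra genes.

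In 100-kb windows of chromosome 6, the median was 1 peak in the 50 µL list and 0 in the no-gradient list. The densest window of the complex, which contains Cd69, held 24 and 8 peaks, and 2 and 6 of 1466 windows of the chromosome held more. By count, peaks at Klr genes were a small part of the peaks of the complex. The share of its sequence that lies in Klr genes was not set beside these counts. Of the 198 peaks in the 50 µL list 7 were at Klr promoters and 16 touched Klr gene bodies, and of the 49 in the no-gradient list 1 and 4. The site with the most reads in the 50 µL list lay between genes, between Klrb1 and Klrb1c, with 196 reads (18.2 times background) in the 50 µL library and 56 reads (20.3 times) in the no-gradient library. Another in the same interval had 190 reads (17.7 times) in the 50 µL library and 66 reads (23.9 times), the most of the complex, in the no-gradient library. The highest site at a Klr gene by reads reached 12.5 times background in the 50 µL library and 11.2 times in the no-gradient library. Which gene such sites act on is not measured here.

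**Figure D4:**
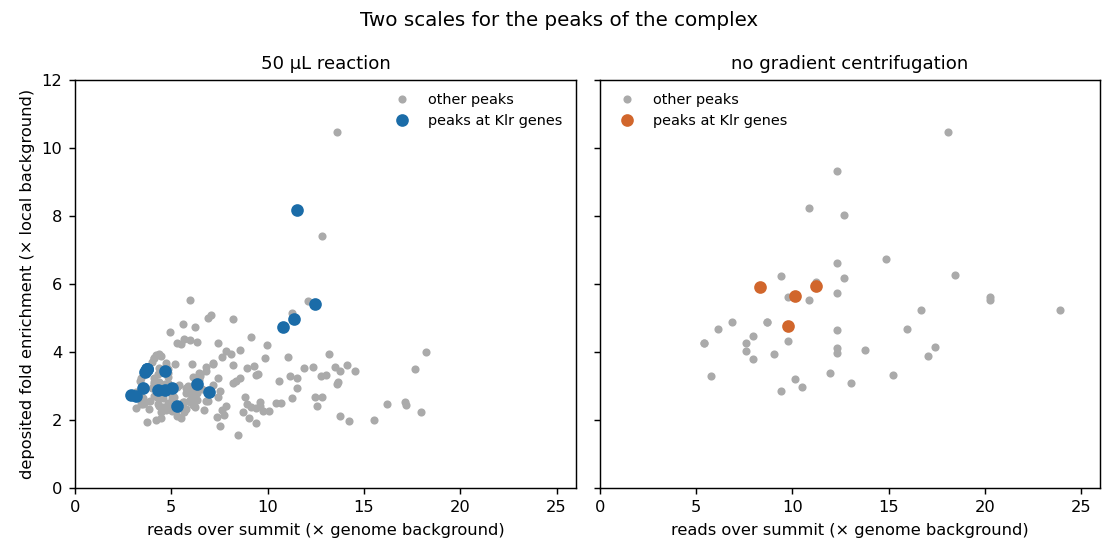
Deposited fold enrichment over the local background (vertical axis) against reads over the summit in multiples of the genome background (horizontal axis) for each peak of the complex, in the 50 µL library (left) and the library without density gradient centrifugation (right). Sites of more than 15 times genome background in the 50 µL library have fold enrichments of 1.99 to 4.00, while the Klrb1c site at 11.5 times has 8.16.

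The order of sites within the complex depended on the scale. The local background of the median complex peak was 1.98 times that of the genome in the 50 µL library and 1.77 times in the no-gradient library, against 1.71 and 1.66 over all peaks. The Klrc1 intronic peak and the promoter peaks of Klra5 and Klra1 had a fold enrichment of 3.49, above the 2.80 of the Klrb1f site with 75 reads, although they had 40 reads each. Their local background was that of the genome, and that of the Klrb1f site was 2.43 times as high. An order of Klr genes by fold enrichment therefore differs from one by reads.

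Of the 198 complex peaks of the 50 µL list 43 overlapped a no-gradient peak (21.7%, beside 26.4% of all 50 µL peaks), and 43 of the 49 no-gradient peaks overlapped a 50 µL peak (87.8%, beside 95.3%). Over these 43 pairs the median was 8.93 times background in the 50 µL library and 11.2 in the no-gradient library, with a median ratio of 0.755, against 0.946 over all 24140 shared sites. The interval of the 50 µL library was wholly above at 1 pair and that of the no-gradient library at 5. Summits lay a median of 43.0 bases apart, and 50.0 over all shared sites. Of the 6 peaks found in the no-gradient list alone, 1 stood upstream of Klrc1, as given above, and 1 with 15 reads stood 4009 bases upstream of Klra9. All 6 were at 5.43 times background or more.

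Sequence letters of factors that act in NK cells were searched on both strands in the 200 bases around each summit. These were the ETS motif CCGGAAGT, the RUNX motif TGTGGTTN, the T-box motif AGGTGTGA, the STAT motif TTCNNNGAA, the AP-1 motif TGANTCA and a CTCF core motif. In the 19 windows at Klr genes in the 50 µL list, AP-1 letters occurred in 2, STAT letters in 1 (Klre1) and the other motifs in 0. The AP-1 letters read TGATTCA at Klrd1 and TGAATCA at Klra5, without the central C or G of the usual site. In all 89213 windows of that list the shares were 5.39% for AP-1, 5.50% for STAT, 0.918% for ETS, 6.20% for RUNX, 0.852% for T-box and 3.01% for CTCF. In the 4 windows at Klr genes in the no-gradient list, AP-1 and STAT letters occurred in 1 each, beside 5.02% and 5.95% of 25343 windows. Over the complex the shares were 8.08% for AP-1, 8.59% for STAT and 5.05% for RUNX in the 50 µL list, and 8.16%, 6.12% and 12.2% in the no-gradient list, each with an interval that includes the share over all windows. Neither ETS nor T-box letters were found in any complex window. With 19 windows, a count of 0 leaves up to 17.6% possible.

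Promoter peaks at the genes that act with the Klr receptors are read beside the 56.6% of protein-coding genes in the 50 µL list and 43.6% in the no-gradient list that had one. Of 25 adaptor and signalling genes, 24 had one in the 50 µL list (96.0%, 79.6% to 99.9%) and 12 in the no-gradient list (48.0%, 27.8% to 68.7%), the second near the share of all protein-coding genes. Both intervals lie above those of the Klr genes, at 7.71% to 38.6% and 0.0844% to 17.2%, although the lists differ in CpG content and in the cell types that use the genes. Tyrobp, which encodes DAP12, the adaptor of activating Ly49 receptors, had a peak of 169 reads in the 50 µL list (15.7 times background) and none in the no-gradient list. Hcst, which encodes DAP10, the adaptor of NKG2D, had 93 reads (8.65 times) in the 50 µL list and none in the no-gradient list. The phosphatase genes Ptpn6 and Ptpn11, which serve inhibitory receptors, had peaks in both lists, with 140 and 112 reads in the 50 µL library (13.0 and 10.4 times) and 29 and 26 reads in the no-gradient library (10.5 and 9.42 times). The others of this list with a peak in both were Inpp5d, Vav2, Vav3, Grb2, Pik3cd, Pik3r1, Lck, Fyn, Lat and Lat2, at 9.67 to 17.2 times background in the 50 µL library and 9.42 to 14.1 times in the no-gradient library, many of which B or T cells use too. At Pik3cd, Lck and Lat2 the values of the lists are of peaks that do not overlap each other. Only Sh2d1b2 had no promoter peak in either list.

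Of 22 transcription factors of NK cells, 20 had a promoter peak in the 50 µL list (90.9%, 70.8% to 98.9%) and 11 in the no-gradient list (50.0%, 28.2% to 71.8%), beside 56.6% and 43.6% of protein-coding genes. The 4 most significant in the 50 µL list were Stat5a with 148 reads, Cbfb with 151, Prdm1 with 161 and Nfil3 with 135. In the no-gradient list peaks stood at Gata3, Prdm1, Runx1, Tox, Stat5b, Stat5a, Id2, Cbfb, Runx3, Stat4 and Irf2, with 17 to 48 reads. Tbx21, which encodes T-bet, had 96 reads (8.93 times background) in the 50 µL list and no peak in the no-gradient list, and Eomes had none in either. Of 28 other NK receptors and effectors, 20 had a promoter peak in the 50 µL list (71.4%, 51.3% to 86.8%) and 6 in the no-gradient list (21.4%, 8.30% to 41.0%), the first interval including and the second lying below the share of protein-coding genes. Il2rb, Il18rap, Prf1 and Cd96 were the most significant in the 50 µL list, with 120, 72, 97 and 89 reads, and Itga2, Ifng, Slamf6, Slamf7, Il18r1 and Crtam were those of the no-gradient list, with 14 to 37 reads. Crtam had no promoter peak in the 50 µL list.

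Of 19 genes for ligands of Klr receptors, 15 were found in the annotation, and 7 of these had a promoter peak in the 50 µL list and 6 in the no-gradient list. They were the MHC class I genes H2-K1 and H2-D1, bound by Ly49 receptors, with 176 and 190 reads in the 50 µL library (16.4 and 17.7 times background) and 64 and 46 reads in the no-gradient library (23.2 and 16.7 times). H2-T23, whose Qa-1 product is the ligand of CD94/NKG2A, had 138 reads (12.8 times) in the 50 µL library and 26 reads (9.42 times) in the no-gradient library. B2m had 150 and 48 reads, the NKG2D ligand gene Ulbp1 107 and 19, and Clec2d, the ligand of Klrb1b, 137 and 38, each in the 50 µL and the no-gradient library. Clec2i had 138 reads in the 50 µL list and no promoter peak in the no-gradient list. These shares of 46.7% (21.3% to 73.4%) and 40.0% (16.3% to 67.7%) have intervals that include those of all protein-coding genes, 56.6% and 43.6%.

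**Figure D5:**
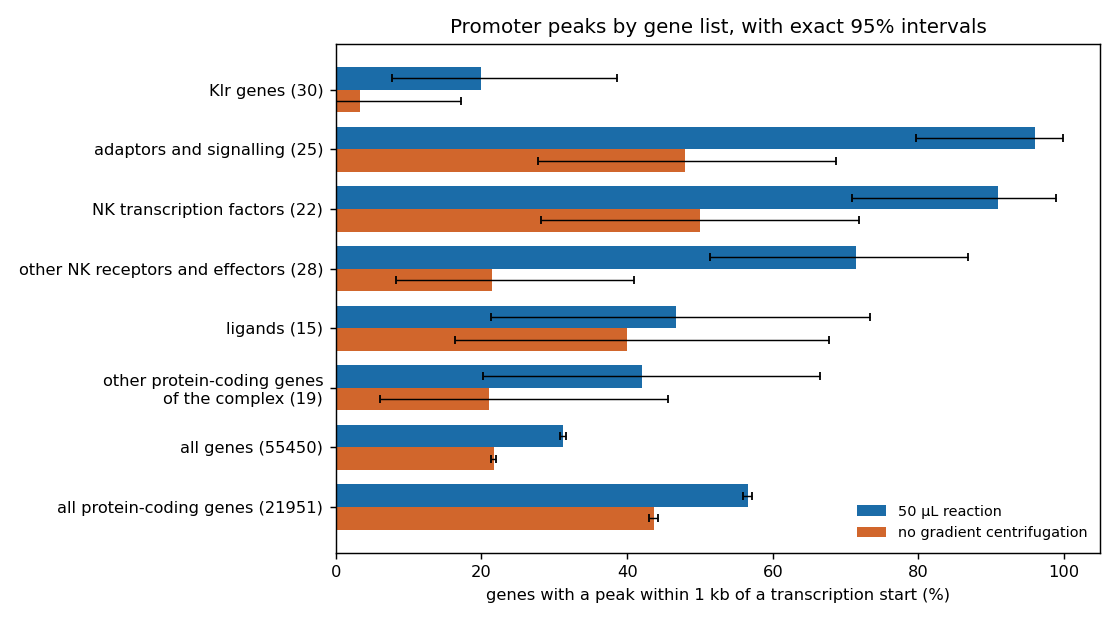
Share of genes with a promoter peak (%) in the 50 µL library (blue) and the library without density gradient centrifugation (orange), with exact 95% binomial intervals and the number of genes in brackets. The Klr genes, at 20.0% and 3.33%, lie below the adaptor, transcription factor and other NK lists in both libraries, with intervals that overlap for the other NK list without centrifugation.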

How the data were processed

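Peak lists of both libraries were used as deposited, in mm10 coordinates. The authors mapped reads with BWA v0.7.17, removed duplicates, and pooled the reads of each library for MACS2 (v2.1.2; q threshold 0.01). Blacklisted stretches were taken out (bedtools v2.30.0). A filter on mapping quality is not given in the sources used here. For each peak the deposited columns give the fold enrichment (a ratio of reads over the summit to a local background), the −log10 p and the −log10 q, and an integer score, which was not used for any result. The number of reads at a summit is the whole number that satisfies both the fold enrichment and the −log10 p; the −log10 p computed from it differed from the deposited one by at most 0.000103 in any peak, and the lowest background of a library was taken as that of the genome. This step was added after seeing the data.

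Depth per cell and total reads are not known from these files, and depth enters through the background of 10.8 reads in the 50 µL and 2.76 in the no-gradient library. A promoter was 1 kb on each side of any annotated TSS and any overlap of 1 bp counted. Uniqueness was computed from all 50-mers of the GRCm38 genome, and shorter reads map less uniquely. Intervals are exact Clopper-Pearson or Poisson intervals at 95%. With 1 library per group, no test was made. Every Klr gene with a peak was named, as was every member of the other lists with a promoter peak in the no-gradient list and the 4 most significant in the 50 µL list. The members and gene lists were chosen with earlier results of these data known. Steps were tested on simulated data. The sequence of 1 intronic site is not reported here. Python 3.11.15, numpy 2.4.6, pandas 2.3.3, scipy 1.17.1, Biopython 1.88 and matplotlib 3.10.9 were used. Alternatives were stricter peak thresholds, other promoter windows and overlaps, and an equal list length.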

Additional observations from a re-analysis of the deposited data

How the results depend on the processing

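Of 68 alternatives over 12 results, 54 left the count within 1.5 times and 14 moved it. Peaks with a fold enrichment of at least 4 left 2 Klr genes with a promoter peak in the 50 µL list (Klrb1a and Klrd1), 3 with a body peak, 25 complex peaks, 913 peaks in the whole span and 35 of 90 genes of the other lists, against 6, 13, 198, 3285 and 71. Reducing the 50 µL list to its 25343 most significant peaks left 2 Klr genes with a promoter peak, 3 with a body peak, 40 complex peaks and 45 genes of the other lists, with 22 of the 40 complex peaks and 22 of the 49 no-gradient peaks shared. Peaks of at least 4 times the genome background, an alternative added after seeing the data, left 3 Klr promoters (Klrb1a, Klrb1f and Klrd1) and 8 Klr gene bodies in the 50 µL list, and 1 and 4 in the no-gradient list. A window of 2 kb gave 4 Klr genes with a promoter peak in the no-gradient list (Klrb1a, Klre1, Klrd1 and Klrc1), against 1. The share of all genes with a promoter peak moved too. In the 50 µL list it was 19.1%, 22.5% and 29.3% under the first 3 settings, against 31.2%. In the no-gradient list it was 24.0% with the 2 kb window, against 21.7%. Under these settings no share over all genes was computed for body peaks. For the overlap with the reduced 50 µL list no share over all peaks was computed either. The Klrd1 promoter was called in both lists under each alternative run on it. Under the first 3 settings no Klra gene had a promoter peak in either list, so the Klra peaks rest on the weak end of the 50 µL list. No paired analysis was possible because each group has 1 library and the labels give no replicate numbers. The weakest site called at genome background in the no-gradient library had 3.98 times background, and the limit is higher where the local background is raised. The paper reports lower TSS enrichment, more duplicates and fewer reads in peaks for spleen nuclei without gradient centrifugation, and no clear separation of cell types. Depth and library quality cannot be told apart here.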

Other observations

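Other genes lie between the Klr genes. Of 19 other protein-coding genes of the complex, 8 had a promoter peak in the 50 µL list (42.1%, 20.3% to 66.5%) and 4 in the no-gradient list (21.1%, 6.05% to 45.6%), beside 56.6% and 43.6% of all protein-coding genes. Cd69, an early activation marker of lymphocytes, had 152 reads (14.1 times background) in the 50 µL library and 46 reads (16.7 times) in the no-gradient library, and Clec2d had 137 reads (12.7 times) and 38 reads (13.8 times). A further peak in both lists stood at 4922502D21Rik, with 92 reads in the 50 µL library and 31 in the no-gradient library. BC035044 had a no-gradient peak of 33 reads, which overlapped a 50 µL peak of 97 reads. The most significant 50 µL promoter peak of BC035044, with 108 reads, overlapped no peak of the no-gradient list. Clec12a, known from myeloid cells, had 51 reads in the 50 µL list and no promoter peak in the no-gradient list. A peak in the gene body was found at 15 of these 19 genes in the 50 µL list (78.9%, 54.4% to 93.9%) and 12 in the no-gradient list (63.2%, 38.4% to 83.7%), beside 63.9% and 47.7%. The highest fold enrichment of the complex in the 50 µL list, 10.5, was at a site between Klrb1f and Clec2e.

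Summit windows with a perfect tandem repeat of at least 20 bases made up 9.65% of all 50 µL windows and 3.54% of all no-gradient windows. At Klr genes there were 2 of 19 in the 50 µL list, at Klrc1 and Klra17, and 0 of 4 in the no-gradient list. In the complex there were 15 of 198 and 0 of 49.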
